A study of Mus musculus with 6 samples.

Results

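Rgs2 and Rgs4 were followed through POLR2A ChIP-seq of mouse neural progenitor cells (NPCs), together with 8 other genes for regulators of G-protein signalling: Rgs3, Rgs5, Rgs8, Rgs10, Rgs12, Rgs16, Rgs17 and Rgs20. Of these 10 genes, 6 were in the count table of 12107 genes (Rgs2, Rgs4, Rgs8, Rgs12, Rgs16 and Rgs17), each with a promoter, a gene body and a TES (transcription end site) region, which makes 18 of 36321 regions. Rgs3, Rgs5, Rgs10 and Rgs20 were not analysed here. The set was chosen by its difference between KO and WT NPCs: the Rgs2 gene body and the Rgs4 promoter had passed the threshold of that comparison. The KO against WT values below therefore describe these genes and test nothing.

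RGS proteins switch off signals from G-protein-coupled receptors. When a receptor is bound by its ligand, the alpha subunit of the G protein takes up GTP and parts from the beta and gamma subunits, and an RGS protein speeds the hydrolysis of that GTP so that the subunits join again. RGS2 is known for its preference for Gq alpha subunits, while RGS4, RGS8 and RGS16, small proteins of the same group, act on Gi and in part on Gq alpha subunits, RGS17 belongs to a family that acts on Gi and Gz alpha subunits, and RGS12 is a large protein with further domains beside the RGS domain. Rgs2 is also known in neurons as a gene whose mRNA is induced by cell activity.

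KO NPCs (Armc5(-/-)) were set against WT NPCs, with 3 libraries in each group, numbered as 3 replicate pairs. Both groups came from e13.5 fetuses with the strain given as 129 sv X CD1, and were grown from ganglionic eminences as neurospheres in medium with epidermal growth factor and used at the second passage. ARMC5 is the part of a ubiquitin ligase that binds the largest Pol II subunit, POLR2A, and the question was whether Pol II sits differently on genes in its absence. Chromatin was pulled down through the N-terminal domain of POLR2A and sequenced, so that a read count gives how much Pol II was bound to a region, not how much mRNA was made. Cultures of NPCs are mixtures, and a change in the share of a cell type cannot be told apart from a change of Pol II within cells.

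The 6 libraries held from 14528870 to 25199455 reads in the counted regions. Replicate pair 3 stood apart from the other pairs, with 6.88% of its reads in promoters in KO and 6.04% in WT, against 11.0 to 12.2% in KO and 10.9 to 11.2% in WT in pairs 1 and 2. WT replicate 3 also had 0.731 CPM (read counts scaled to a common library size) over the 4 Y-linked genes measured, against 118 to 141 CPM in the KO libraries and 185 to 216 CPM in the other WT libraries. The part of these features in the results was not tested. Both calls named below were also made without replicate 3, among 298 regions called in the whole table, against 49 with all libraries. They were made without X- and Y-linked genes too, among 125 regions called. Leaving out those rows cannot show the part of sex at genes on other chromosomes, such as Rgs2 and Rgs4. Armc5 itself was not analysed here, so the genotype labels were not checked on it. Of 9 neural stem cell markers 8 were measured, Sox2 and Nes among them, none of the 7 microglia and blood cell markers was in the table, and no region of any marker list passed the threshold. The summed gene body signal of 6 neuron markers ranged from 1011 to 1280 CPM in KO and from 1023 to 1374 CPM in WT. Some marker medians were above 0, as at Rgs2 and Rgs4: the log2 fold change was 0.33 over the promoters of the neuron markers, 0.26 over those of 5 oligodendrocyte lineage markers, and 0.24 over the gene bodies of 3 ganglionic eminence markers, all 3 above 0. The gene body medians of the neuron and oligodendrocyte lineage markers were -0.02 and -0.04, and the promoter median of the ganglionic eminence markers was -0.04. The neural stem cell markers had medians of 0.0003 in gene bodies and -0.048 at promoters. In the same order the medians were -0.012 and 0.002 for astrocyte markers, and -0.025 and 0.099 for endothelial and mural markers. The part of these marker values in the RGS results was not tested.

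Rgs2, Rgs4, Rgs8 and Rgs16 lie on mouse chromosome 1 (GRCm38 coordinates, curated RefSeq transcripts). Rgs2 covers chr1:143999338-144004149 on the minus strand, and Rgs4 covers chr1:169741477-169747642, also on the minus strand. Rgs8 (chr1:153653037-153697665) and Rgs16 (chr1:153740353-153745468) are neighbours on the plus strand, with 42687 bases between them. Rgs12 lies on chr5:34949448-35033595 on the plus strand and Rgs17 on chr10:5825663-5922400 on the minus strand. The promoter was counted from 400 bases before to 100 bases after the transcription start site (TSS), and the TES region from 100 bases before to 2000 bases after the transcript end. For Rgs8 and Rgs12, curated transcripts also begin further downstream, and the start used for the counts was not stated. Levels below use the longest transcript.

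The 250 bases before the start of Rgs2 (chr1:144004150-144004399, minus strand), Rgs4 (chr1:169747643-169747892, minus strand) and Rgs16 (chr1:153740103-153740352, plus strand) are shown because these promoters lie within the counted windows of the genes with the largest differences. They were taken from RefSeq on GRCm38.p6 and are written 5′ to 3′ on the strand of the gene. Capitals mark the half-site of the cAMP response element (TGACG), the CCAAT box (CCAAT) and the TATA box (TATAAA), each on either strand.
Rgs2: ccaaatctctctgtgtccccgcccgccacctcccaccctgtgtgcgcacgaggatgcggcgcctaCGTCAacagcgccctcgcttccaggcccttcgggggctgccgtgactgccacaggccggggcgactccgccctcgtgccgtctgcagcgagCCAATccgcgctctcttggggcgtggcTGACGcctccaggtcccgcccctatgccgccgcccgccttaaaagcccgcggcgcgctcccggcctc
Rgs4: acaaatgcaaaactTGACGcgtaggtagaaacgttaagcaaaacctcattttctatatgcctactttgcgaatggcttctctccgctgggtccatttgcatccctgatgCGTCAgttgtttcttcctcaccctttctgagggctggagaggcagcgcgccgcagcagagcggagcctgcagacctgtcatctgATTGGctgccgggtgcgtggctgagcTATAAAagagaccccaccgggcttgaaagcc
Rgs16: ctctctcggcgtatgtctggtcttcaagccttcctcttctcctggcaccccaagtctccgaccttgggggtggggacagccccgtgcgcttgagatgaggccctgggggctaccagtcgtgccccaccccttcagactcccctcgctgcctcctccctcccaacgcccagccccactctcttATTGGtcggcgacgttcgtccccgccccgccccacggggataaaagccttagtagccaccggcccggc

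The Rgs2 promoter held the cAMP half-site letters at 2 places, with first bases at -185 and -67 from the TSS, and a CCAAT box at -94. The Rgs4 promoter also held 2 half-sites, at -236 and -141, with a CCAAT box at -57 and a TATA box at -31. The Rgs16 promoter had no half-site, and its CCAAT box began at -68. Genes with no call held half-sites too, at -46 from the longest-transcript start of Rgs8 and at -82 from the downstream start of Rgs12. The other starts of Rgs8 and Rgs12 and the start of Rgs17 had none. In the 300 bases from 250 before to 50 after the start, TGACG was found in 20.8% of 32851 RefSeq promoters, CCAAT in 37.4% and TATAAA in 13.6%. The whole element TGACGTCA, which contains the half-site, was found in 1.79% of promoters and in none of the 6 genes. The GC box GGGCGG, found in 35.7% of promoters, occurred 4 times at Rgs2, 2 times at Rgs16 and not at Rgs4. Base composition differed too, with 70.0% G and C and 33 CpG dinucleotides at Rgs2, 66.0% and 22 at Rgs16, and 53.0% and 13 at Rgs4, against medians of 52.7% and 7 over all promoters. A match to these letters describes the sequence and is not a binding site.

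Rgs2 is a small gene whose protein shortens signals through Gq. In its gene body, the KO libraries had 13.4, 17.0 and 15.8 CPM in replicates 1, 2 and 3, against 8.50, 11.1 and 6.99 CPM in the WT libraries. The groups did not overlap, and KO was above WT in each of the 3 pairs. The fitted difference was 1.69-fold, a log2 fold change of 0.76 ± 0.14 (SE, n = 3 pairs), with an adjusted p of 0.0883 in the limma fit over all 36321 regions. The pair differences were 0.65, 0.62 and 1.17 on the log2 scale, the highest in pair 3. These values rest on 372, 354 and 223 reads in KO and 174, 280 and 86 reads in WT. Without replicate 2 the adjusted p was 0.367 and the log2 fold change 0.88, so the call depended on that pair. With KO replicate 2 or WT replicate 2 alone left out, the adjusted p was 0.113 or 0.213. With the pair as a block, a library without its partner adds nothing to the KO against WT estimate. These settings therefore also rest on pairs 1 and 3 and do not show the part of a single library. The call was also lost with each kind of region fitted on its own (adjusted p = 0.253 in limma), with scaling on gene bodies (0.135) and without the pair as a block. In that order, these settings called 85, 18 and 0 regions in the whole table.

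The Rgs2 promoter had 26.6, 15.4 and 10.3 CPM in KO replicates 1, 2 and 3, against 18.4, 16.1 and 11.4 CPM in WT. Here the groups overlapped, and KO was the higher in pair 1 alone, with a log2 fold change of 0.20 ± 0.14 and an adjusted p of 0.742 in limma. Without replicate 1 the log2 fold change was -0.08. The Rgs2 TES region had 1.15, 2.49 and 1.98 CPM in KO, against 1.32, 1.54 and 2.27 CPM in WT, so that only pair 2 was higher in KO (0.18 ± 0.27), and the log2 fold change was -0.19 without replicate 2. Of the 3 Rgs2 regions the gene body alone passed the threshold, and whether the regions differ from each other was not tested.

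Rgs4 codes for a small RGS protein that acts on Gi and Gq alpha subunits. Its promoter had 8.67, 7.58 and 2.19 CPM in KO replicates 1, 2 and 3, against 4.35, 4.23 and 1.14 CPM in WT. KO was well above WT in every pair, yet the groups overlapped, with pair 3 low in both. The fitted difference was 1.89-fold, a log2 fold change of 0.92 ± 0.17 with an adjusted p of 0.0972 in limma, and the pair differences were 0.99, 0.84 and 0.92. This was the last region inside the threshold of 0.1 in the whole table, and the first outside was the gene body of Hist1h3f, a histone gene, with a log2 fold change of 0.55 and an adjusted p of 0.101. The reads behind the Rgs4 promoter were few, with 241, 158 and 31 in KO and 89, 107 and 14 in WT. Its adjusted p was 0.446 without replicate 2, 0.216 without KO replicate 2 and 0.312 without WT replicate 2, at log2 fold changes from 0.97 to 0.99. With the pair as a block, all of these settings rest on pairs 1 and 3. The call was also lost with DESeq2 (0.424), with the deposited log2 values (0.164), with a filter on low counts (0.101), with scaling on gene bodies (0.135) and without the pair as a block.

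The Rgs4 gene body had 9.00, 10.6 and 8.78 CPM in KO replicates 1, 2 and 3, against 7.62, 6.25 and 6.82 CPM in WT. The groups did not overlap, and the log2 fold change was 0.46 ± 0.15 with an adjusted p of 0.438 in limma, which did not pass the threshold. With KO replicate 1 or WT replicate 1 left out, this region was called, among 546 or 545 regions called in the whole table, against 49 with all libraries. With the pair as a block, both settings rest on pairs 2 and 3. Without the whole of pair 1 the adjusted p was 0.138 in limma, and the region was not called. The Rgs4 TES region was near level between groups, with 2.02, 2.35 and 2.12 CPM in KO, against 2.39, 2.06 and 2.11 CPM in WT (-0.02 ± 0.23).

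**Figure D1:**
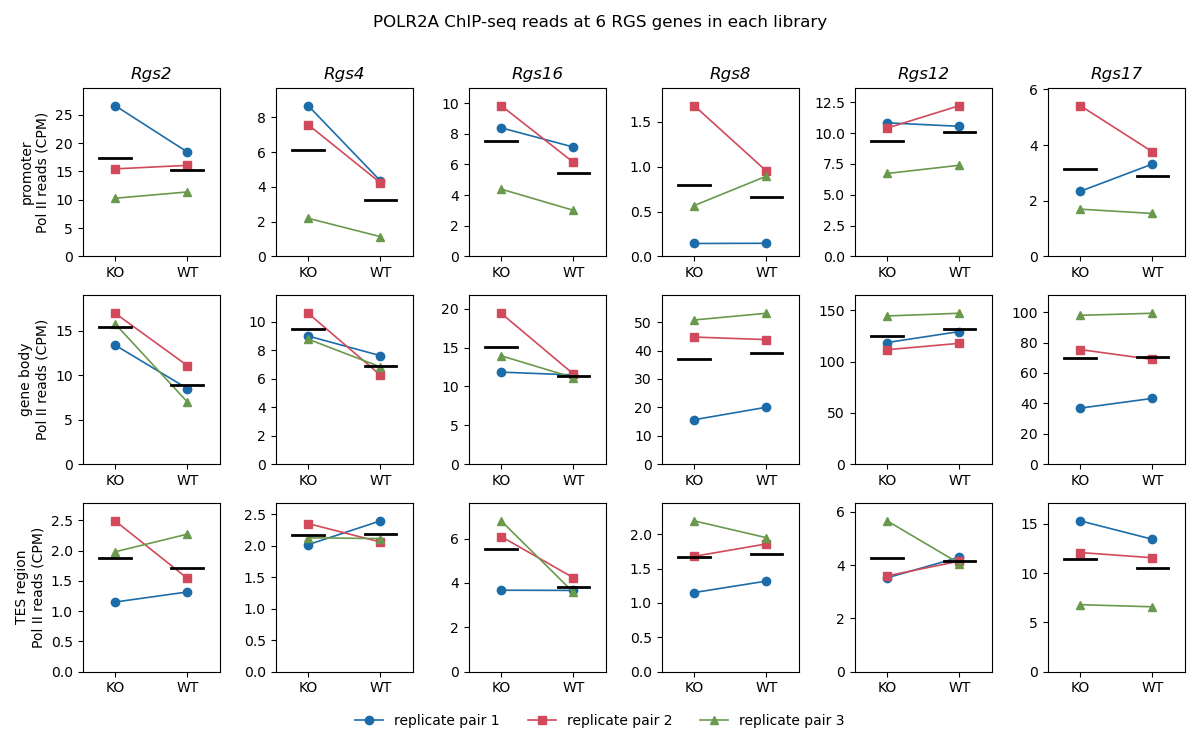
Pol II reads at the promoter (top row), gene body (middle row) and TES region (bottom row) of 6 RGS genes, in TMM-scaled CPM on the vertical axes, each starting at 0, with KO left of WT. Coloured symbols joined by a line are the 2 libraries of a replicate pair and black bars are group means. In the Rgs2 gene body the KO libraries lie at 13.4 to 17.0 CPM, all above the WT libraries at 6.99 to 11.1 CPM, while at the Rgs4 promoter each line falls toward WT but pair 3 is low in both groups.

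Rgs16, the small gene next to Rgs8, had a log2 fold change above 0 in all 3 kinds of region, with all libraries and under each alternative. Its gene body had 11.8, 19.4 and 13.9 CPM in KO replicates 1, 2 and 3, against 11.5, 11.6 and 11.1 CPM in WT. The WT libraries were close together and the groups did not overlap, but KO replicate 1 was barely above WT. The log2 fold change was 0.40 ± 0.15 with an adjusted p of 0.485 in limma. This gene body was called without replicate 1, without its KO library and without its WT library, settings that called 382, 546 and 545 regions in the whole table, against 49 with all libraries. With the pair as a block, all 3 settings rest on pairs 2 and 3 and are not separate checks. The Rgs16 promoter differed by 0.47 ± 0.16 (adjusted p = 0.456), with 7.54 ± 2.82 CPM in KO and 5.42 ± 2.15 CPM in WT (SD, n = 3 each), and its TES region by 0.46 ± 0.20 (adjusted p = 0.577), with 5.52 ± 1.64 CPM in KO and 3.82 ± 0.36 CPM in WT. A transcript on the other strand, Gm28513, overlaps 1817 bases of the Rgs16 gene body and the whole TES region, and ChIP-seq reads do not tell the strands apart.

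The remaining 3 genes showed no difference past the threshold in any region. Rgs12, which codes for a large protein with PDZ and RAS-binding domains, had 118.7, 111.7 and 144.6 CPM in its gene body in KO, against 129.4, 117.9 and 147.3 CPM in WT. KO was the lower in every pair, by a small amount (-0.08 ± 0.06), and the groups overlapped. Rgs8, known from neurons, had 15.6, 44.7 and 50.8 CPM in its gene body in KO, against 20.0, 43.8 and 53.1 CPM in WT (-0.09 ± 0.09). Rgs17, which codes for a regulator of Gi and Gz signals, had 36.9, 75.4 and 98.0 CPM in KO, against 43.3, 68.9 and 99.4 CPM in WT (-0.02 ± 0.08). At both Rgs8 and Rgs17 the pairs differed from each other far more than KO differed from WT, with pair 1 low and pair 3 high in both groups. The share of reads in gene bodies over the whole table moved the same way, from 80.3% in KO and 81.1% in WT in pair 1 to 87.2% in KO and 88.1% in WT in pair 3, and its part in these levels was not tested.

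The Rgs12 promoter had 9.32 ± 2.26 CPM in KO and 10.1 ± 2.45 CPM in WT (-0.11 ± 0.13), and the Rgs17 promoter 3.15 ± 1.99 CPM in KO and 2.87 ± 1.17 CPM in WT (0.10 ± 0.23, or -0.30 without replicate 2). The Rgs8 promoter held only 4, 35 and 8 reads in KO and 3, 24 and 11 in WT. Its log2 fold change of 0.33 ± 0.40 turned to -0.44 without replicate 2, so its direction could not be told at this depth. The TES regions differed by -0.07 ± 0.25 at Rgs8, by -0.04 ± 0.19 at Rgs12 and by 0.12 ± 0.12 at Rgs17.

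By kind of region, the threshold was passed by 1 of 6 promoters and by 1 of 6 gene bodies, both higher in KO, and by none of 6 TES regions. In the whole fit 0.165% of 12107 promoters and 0.173% of gene bodies were called higher in KO, and 0.0248% of TES regions. Since the genes were picked for these calls, nothing is read from the shares. The median log2 fold change of the 6 genes was 0.27 at promoters, 0.19 in gene bodies and 0.05 at TES regions, against 0.03, -0.01 and -0.08 over all genes. Of the 18 member regions 11 were above 0, and 44.9% of all regions were.

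**Figure D2:**
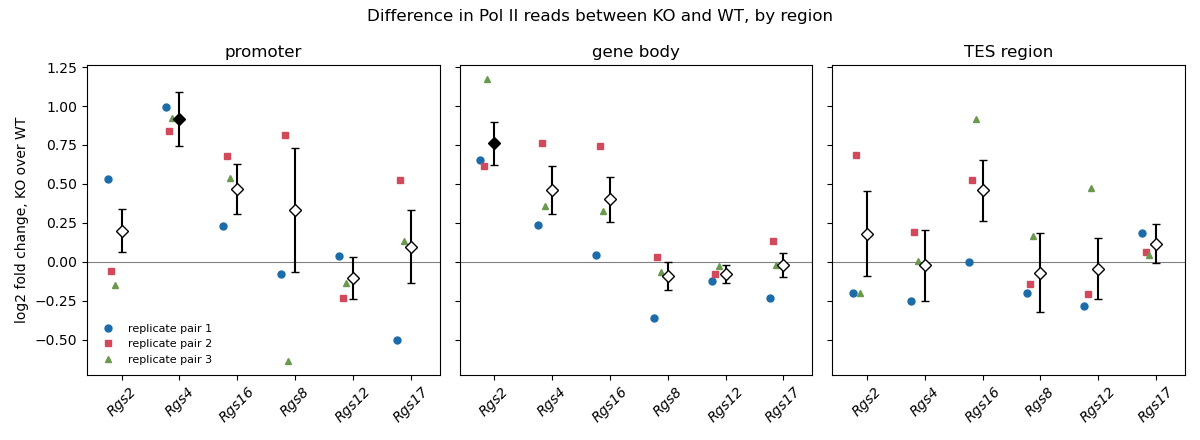
Log2 fold change of KO over WT (vertical axis) for the promoter, gene body and TES region of each RGS gene. Diamonds with bars are the limma estimate ± SE, filled where the adjusted p was under 0.1, and coloured symbols are the 3 replicate pairs. The filled diamonds are the Rgs4 promoter at 0.92 and the Rgs2 gene body at 0.76, and the Rgs12 and Rgs17 gene bodies lie at -0.08 and -0.02.

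Levels were compared between genes per kilobase of region. The Rgs2 promoter had the highest density, 34.9 ± 16.7 CPM per kb in KO and 30.6 ± 7.17 CPM per kb in WT (SD, n = 3 each), and its WT level was above that of 92.1% of the 11733 other genes with a known length. The Rgs12 promoter followed with 18.6 ± 4.52 CPM per kb in KO and 20.1 ± 4.91 CPM per kb in WT, then Rgs16, Rgs4 and Rgs17. Rgs8 came last, with 1.59 ± 1.59 CPM per kb in KO and 1.33 ± 0.90 CPM per kb in WT, where only 2.49% of genes were lower. In this order Rgs2 was above Rgs12, Rgs12 above Rgs16 and Rgs17 above Rgs8 in all 6 libraries. Rgs16 and Rgs4, and Rgs4 and Rgs17, were not separated beyond their spread.

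In gene bodies the levels were closer together. Rgs16 had 3.07 ± 0.80 CPM per kb in KO and 2.32 ± 0.05 CPM per kb in WT, and Rgs2 had 3.34 ± 0.40 CPM per kb in KO and 1.92 ± 0.45 CPM per kb in WT. They were followed by Rgs12 (1.49 ± 0.21 in KO and 1.57 ± 0.18 in WT), Rgs4 (1.59 ± 0.17 in KO and 1.16 ± 0.12 in WT), Rgs8 (0.83 ± 0.42 in KO and 0.88 ± 0.38 in WT) and Rgs17 (0.73 ± 0.32 in KO and 0.73 ± 0.29 in WT). No pair of neighbours in this order was separated beyond the spread of the libraries. The median gene had 1.40 CPM per kb in WT, so that Rgs8 and Rgs17, at the 17.2 and 8.17 percentiles, had few reads per length, background reads included. With the shortest curated transcript in place of the longest, the WT gene body level would be 3.83 CPM per kb for Rgs12, the highest of the 6 genes in WT, and 1.23 CPM per kb for Rgs8.

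At TES regions Rgs17 had the highest mean, with 5.42 ± 2.04 CPM per kb in KO and 5.01 ± 1.69 CPM per kb in WT, above 91.1% of genes in WT. It was not separated from Rgs16 beyond the spread, being higher in 5 of 6 libraries, and of the other neighbours Rgs12 alone was above the next gene, Rgs4, in all 6 libraries. The start of Mtrf1l, a gene for a mitochondrial translation release factor, lies inside this window on the same strand, and the window shares 248 bases with it. The Mtrf1l promoter window itself had 5.45 ± 2.29 CPM in KO and 4.83 ± 2.09 CPM in WT, against 11.4 ± 4.29 CPM in KO and 10.5 ± 3.54 CPM in WT for the Rgs17 TES region. On these coordinates the Mtrf1l promoter window lies within the Rgs17 TES window, so the same reads stand in both values. The other 5 TES regions ranged from 0.80 to 2.63 CPM per kb in KO means and from 0.81 to 1.99 CPM per kb in WT means.

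**Figure D3:**
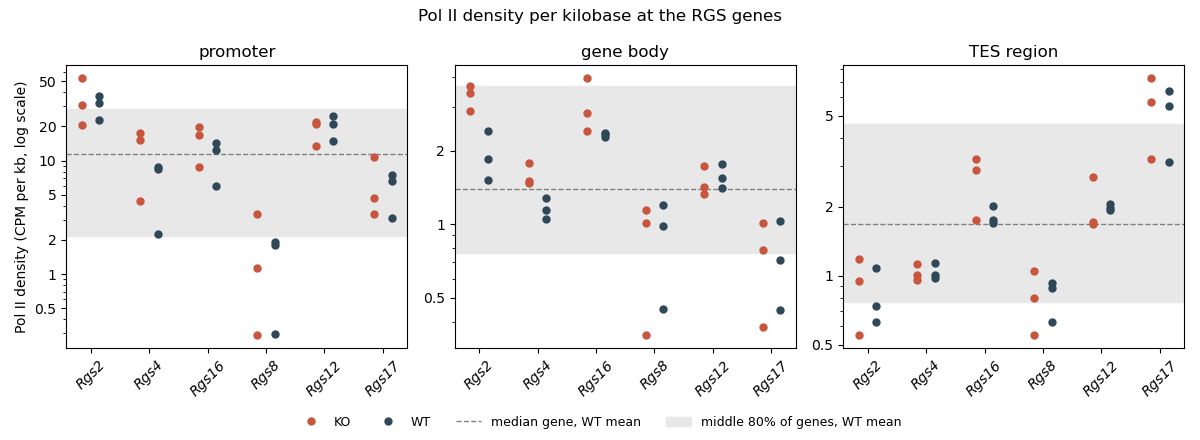
Pol II density in CPM per kb (vertical axes, log scale, a different range in each panel) at the promoter, gene body and TES region of 6 RGS genes, with KO points left of WT points and 1 point per library. The dashed line is the median of all genes in WT and the grey band holds the middle 80% of genes. Rgs2 has the highest promoter level, at 20.5 to 53.2 CPM per kb in KO and 22.7 to 36.8 CPM per kb in WT, and the Rgs8 promoter lies mostly below the band.

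The ratio of promoter to gene body density per base compares reads at a gene's start with reads along its body. Background reads are part of it, since no input library was used. The ratio shares its counts with the comparison that chose these genes and is given as a description. Over the 6 libraries (geometric mean) the promoter was 12.5 times as dense as the gene body at Rgs12, 12.4 times at Rgs2, 8.11 times at Rgs17, 5.68 times at Rgs4, 4.58 times at Rgs16 and 1.40 times at Rgs8. The places of Rgs12 and Rgs8 rest on their longest transcripts: with the gene body length of the shortest curated transcript the ratio would be 5.11 at Rgs12, below Rgs2, Rgs17 and Rgs4, and 1.00 at Rgs8. At Rgs2 the log2 ratio was 4.19, 3.07 and 2.59 in KO replicates 1, 2 and 3, against 4.32, 3.74 and 3.91 in WT. It was the lower in KO in every pair, by 0.12, 0.67 and 1.32, with a mean difference of -0.70 ± 0.60 (SD, n = 3 pairs). At Rgs4 the log2 ratio was 3.52, 3.09 and 1.59 in KO, against 2.77, 3.02 and 1.03 in WT, higher in KO in every pair with a mean difference of 0.46 ± 0.35. The differences of the 2 genes ran in opposite directions. Rgs2 was chosen for a higher gene body in KO and Rgs4 for a higher promoter, so the choice itself favours these directions. For Rgs8, Rgs12, Rgs16 and Rgs17 the mean differences were 0.16 ± 0.68, -0.03 ± 0.17, 0.11 ± 0.15 and 0.09 ± 0.34, and the pairs did not share a sign. The ratio was lowest in pair 3 in both groups at Rgs4, Rgs12, Rgs16 and Rgs17, which is also the pair with the lowest share of reads in promoters.

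**Figure D4:**
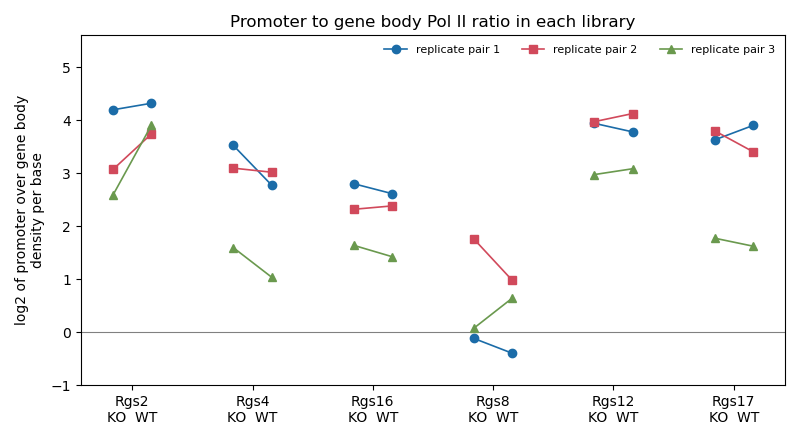
Log2 ratio of promoter to gene body read density per base (vertical axis) at 6 RGS genes, with KO left of WT and lines joining the libraries of a replicate pair. A value of 0 means equal density. The Rgs2 lines climb toward WT in each pair, the Rgs4 lines drop toward WT, and pair 3 lies lowest at Rgs4, Rgs12, Rgs16 and Rgs17.

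The gene bodies whose log2 CPM followed Rgs2 most closely over the 6 libraries, among 12090 with a mean of at least 1 CPM, were Rbm8a (r = 0.99), Hspa1b (r = 0.97) and Klhl11 (r = 0.95). Rbm8a codes for a core protein of the exon junction complex and Hspa1b for an inducible heat shock chaperone. For Rgs4 they were 1810009A15Rik (r = 0.96), Gm49661 (r = 0.96) and Tpra1 (r = 0.95). These are the top 3 of a very large number of comparisons over 6 points that share libraries and depth, and none of the 6 gene bodies was called.

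The rest of the pathway was read from 8 lists that together name 105 genes, of which 81 were measured. Among the other RGS genes, 4 of 12 were in the table (Rgs7, Rgs9, Rgs19 and Rgs22), with no region called in either direction and gene body log2 fold changes from -0.21 to 0.04. Of the partners of RGS proteins 3 of 5 were measured, including Rgs7bp and Rgs9bp, which code for anchors of the R7 group of RGS proteins, and none was called. Their promoters ranged from -0.17 to 0.91 with a median of 0.58, 2 of 3 above 0, and their gene body median was 0.18. The highest was the Rgs7bp promoter (0.91 ± 0.24, adjusted p = 0.306 in limma), higher in KO in all 3 pairs and close to the Rgs4 promoter in size. The other genes with an RGS domain, such as the GRK kinases and the axins, gave 14 of 16 measured and none called, and their gene body changes had a median of -0.04 on the log2 scale. For the proteins that RGS proteins act on, 12 of 13 G protein alpha subunit genes and 12 of 14 beta and gamma subunit genes were measured, none was called, and the median gene body changes were -0.02 and -0.06. The 11 measured effector genes of 17 (adenylyl cyclases, phospholipase C beta enzymes and potassium channels) and the 6 of 7 receptor-independent regulators held no call either, with gene body medians of -0.07 and -0.04. Promoter medians of the lists ran from -0.09 for the other genes with an RGS domain to 0.58 for the partners.

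Among 19 measured receptors of 21, the gene body of Adcyap1r1, the receptor for the neuropeptide PACAP, was called lower in KO. It had 155 ± 54.6 CPM in KO and 205 ± 88.0 CPM in WT (SD, n = 3 each), a log2 fold change of -0.40 ± 0.07 with an adjusted p of 0.0874 in limma, and was the lower in KO in all 3 pairs. The paper already names Adcyap1r1 among the few genes whose Pol II peak density was not increased in KO. The lists were chosen with earlier results of these data known, so nothing is read from this call. No other region of the 81 genes passed the threshold, beside 0.033% of gene bodies called lower in KO over the whole table. The median gene body log2 fold change over these 81 genes was -0.03, and 29 of them were above 0. Over all 12107 gene bodies the median was -0.01, and 45.3% were above 0. Whether the listed genes differ from the rest was not tested.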

How the data were processed

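POLR2A ChIP-seq was carried out on 3 KO and 3 WT NPC libraries. The submitters' processing notes name the build GRCm38 (mm10) and, among the tools, HOMER, BWA, MACS2, edgeR, limma, Picard, Trimmomatic and bcl2fastq 2.20. In the files deposited by the authors, the unnormalized values are whole read counts from HOMER for each region of a gene. These counts were tested here. The authors had removed genes with no signal in KO, which can hide genes lost in KO. They also deposited log2 CPM from TMM scaling and voom, used here as an alternative. No input or spike-in library was used, so a difference in total Pol II cannot be seen. Columns of other samples numbered 0.

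Groups and replicate numbers came from the sample titles. The study describes biological replicate pairs, so pair entered the fit as a block. Same-numbered KO and WT libraries deviated together from their group means (correlations from 0.61 to 0.89, against at most 0.03 between other numbers). Taking deviations from group means pushes the values between other numbers down when same-numbered ones are high, so that contrast is partly built in. Whether the pairs came from separate litters was not stated, so p-values speak for these samples alone. With the pair as a block, they set the KO minus WT difference against its spread between these pairs. Libraries of a group were not copies of each other (lowest chi-square per degree of freedom 28.5).

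All 36321 regions were scaled with TMM (edgeR 4.0.16) and fitted together with voom and limma 3.58.1 in R 4.3.3. The test was two-sided, p-values were adjusted by Benjamini-Hochberg across the 36321 regions, and an adjusted p under 0.1 counted as called. The fit was tested on simulated data. Levels are TMM-scaled CPM, and per kilobase they use curated RefSeq transcripts. Ratios had 0.5 added to each count. The alternatives were another scaling (RLE), a fit for each kind of region, scaling on gene bodies, the edgeR quasi-likelihood test, DESeq2 1.42.0, no block, a filter on low counts, the deposited log2 values, leaving out rows with over 1% of the reads of a kind of region, leaving out libraries, and, chosen after seeing the data, leaving out X- and Y-linked genes and taking the shortest curated transcript. The members and the gene lists were chosen with earlier results of these data known. Named were all listed RGS genes in the table, called genes of the other lists, and the 3 gene bodies most like Rgs2 and Rgs4. Strain names differ between the labels and the methods, and the labels' are given. With these depths the median SE on the log2 scale was 0.09 in gene bodies, 0.17 at promoters and 0.20 at TES regions.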

Additional observations from a re-analysis of the deposited data

How the results depend on the processing

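Of the 18 RGS regions 2 were called, the Rgs2 gene body and the Rgs4 promoter. The same 2 were called with RLE scaling, with the edgeR quasi-likelihood test, without rows over 1% of the reads of a kind of region, and without X- and Y-linked genes, an alternative chosen after seeing the data. The number called was 1 with each kind of region fitted on its own (Rgs4 promoter, with Rgs2 at an adjusted p of 0.253), and 1 with DESeq2, with a filter on low counts or with the deposited log2 CPM values (Rgs2 gene body, with Rgs4 at 0.424, 0.101 and 0.164). It was 0 with scaling on gene bodies, where both had an adjusted p of 0.135 and an unadjusted p under 0.05. With the pair left out as a term, that is without the replicate block, 0 were called, the log2 fold changes were 0.80 for Rgs2 and 0.65 for Rgs4, and their unadjusted p in limma was 0.0209 and 0.336. Leaving out a pair or a single library gave from 0 to 4 called RGS regions: 0 without replicate 2 or either of its libraries, and 4 without KO replicate 1 or WT replicate 1, when the Rgs4 and Rgs16 gene bodies were added. With the block, leaving out 1 library also takes its partner out of the KO against WT estimate. The single-library settings thus rest on the same 2 pairs as leaving out the whole pair. Calls over the whole table moved as well, with 49 with all libraries, 11 without replicate 2, 143 and 51 without its KO or WT library, and 546 and 545 without KO or WT replicate 1. They numbered 18 with scaling on gene bodies, 0 without the block and 125 without X- and Y-linked genes. The cause of these changes was not tested. Both called regions stayed above 0 in each of these alternatives. They were picked for higher values in KO in these same libraries, with every pair above 0, so nothing is read from the kept direction. Of the 18 regions 7, none of them called, changed direction in at least 1 alternative. The Rgs8 promoter, with at most 35 reads a library, fell below 0 without replicate 2 (-0.44), without its KO or WT library (-0.46 and -0.45) and without the block (-0.11). The Rgs17 promoter was at -0.30 and the Rgs2 TES region at -0.19 without replicate 2, and the Rgs2 promoter at -0.08 without replicate 1. The Rgs4 and Rgs12 TES regions and the Rgs17 gene body, all just below 0 with all libraries, were above 0 without replicate 1 (0.13, 0.10 and 0.07). KO minus WT differences of the promoter to gene body ratio moved by less than the spread between pairs, and gene body levels in WT by less than the spread between libraries, with the other offset, denominator or scaling and without each replicate. Some ratio differences still changed sign. Without replicate 2 the log2 difference went from 0.16 to -0.14 at Rgs8, from 0.09 to -0.06 at Rgs17 and from -0.03 to 0.03 at Rgs12. At Rgs12 it was also above 0 without replicate 3 (0.004). With the shortest curated transcript, added after seeing the data, the WT gene body level was 3.83 CPM per kb at Rgs12 and 1.23 at Rgs8, against 1.57 and 0.88 with the longest.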
